A study of Mus musculus with 6 samples.

Results

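The clustered protocadherins are 58 genes in 3 tandem arrays on mouse chromosome 18, and 79 of the 229903 sites of an ATAC-Seq comparison lay in them. Members were the tested sites with a midpoint at 36.92 to 37.2 Mb (the Pcdha or alpha cluster, 22 sites), at 37.25 to 37.65 Mb (Pcdhb or beta, 6 sites) or at 37.65 to 37.85 Mb (Pcdhg or gamma, 51 sites) of mm10. Position alone chose them, not a measured value. The cells were primary mouse embryonic fibroblasts (MEFs), cultured from mid-gestation C57bl6 embryos after the internal organs had been taken out, from 3 HAT1+/+ and 3 HAT1-/- embryos, with no treatment named. HAT1 is the acetyltransferase that modifies newly made histone H4 before it is laid down on replicated DNA, and the study asked how its loss changes chromatin accessibility.

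Protocadherins are cadherin-family adhesion proteins of the cell surface, best known for giving neurons a combinatorial identity. In the alpha and gamma arrays each variable first exon has its own promoter and is spliced to a shared set of 3 constant exons, whereas beta genes have a single coding exon and no constant exons. The last genes of the alpha and gamma arrays, the C-type genes Pcdhac1, Pcdhac2, Pcdhgc3, Pcdhgc4 and Pcdhgc5, differ in sequence and control from the stochastically chosen alternate genes before them. Promoter choice is known to depend on CTCF, cohesin, DNA methylation and distant enhancers, and the silent genes carry H3 K9 methylation. ATAC-Seq inserts adapters into open DNA with a transposase, so a site has more reads where chromatin is more accessible.

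The deposited levels were the mean normalized reads of each genotype on the log2 scale, without values for single lines. No spread between the 3 lines is therefore known, no test between the genotypes was possible, and every difference given here (HAT1-/- level minus HAT1+/+ level) is a description. Depth per line is unknown, and in bulk cultures fewer open cells of a type and less accessibility per cell cannot be told apart. All 10 fibroblast markers examined had a promoter site, with a median HAT1+/+ level of 7.33, but so did 5 of 7 neural, 3 of 4 endothelial, 3 of 3 haematopoietic and 3 of 3 epithelial markers. The median differences of these 5 lists were -0.06, -0.11, -0.62, 0.59 and -0.13, and their part in the results was not tested. At Hat1 itself the promoter site had a level of 7.69 in HAT1+/+ and 7.90 in HAT1-/-, while the sites inside the gene had 3.65 and 4.13 (0.48) and 4.46 and 1.77 (-2.69).

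The gamma cluster was densely covered with accessible sites, the alpha cluster moderately and the beta cluster hardly at all. Sites numbered 255 per Mb in gamma, 78.6 in alpha and 15 in beta. The 1 Mb upstream of the clusters held 130 and the 1 Mb downstream 192, against 84.4 per Mb over the genome. The beta genes span about as much DNA as the alpha genes (256 and 259 kb) but were almost bare of sites, and the 100 kb bins from 400 to 500 kb and from 600 to 700 kb after the start of the alpha window held 0 sites. A site enters the table through the authors' peak calls, so a gene without one had no tested site, which is not a measurement of closed chromatin.

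By the median site, accessibility was lowest in alpha and highest in gamma, an order that depended on how sites were counted. In HAT1+/+ the median was 3.56 (11.8 normalized reads) in alpha, 3.78 (13.7) in beta and 4.45 (21.9) in gamma. In HAT1-/- the medians were 3.24 (9.45 reads), 3.56 (11.8) and 4.46 (22). The flanking 2 Mb had 4.11 and 3.95, and all sites 3.86 and 3.79, so by this median alpha and beta lay below their surroundings and gamma above. The mix of sites differed, with 56.9% at promoters in gamma and 17.4% in the flanks. At protocadherin promoter sites the HAT1+/+ median was 3.57 in alpha, 3.91 in beta and 4.27 in gamma, all below the 6.30 of flank promoter sites. Gamma exon, intron and outside sites had 4.01, 5.20 and 5.08, against 3.84 in the flanks outside promoters. Per kb of site width the HAT1+/+ medians were 5.68 in alpha, 5.56 in beta, 6.36 in gamma and 6.01 in the flanks, so gamma was again the highest but beta the lowest. Among sites with a mean level of at least 4, of which beta had 1 (Taf7, 7.87 and 7.83), the HAT1+/+ medians of alpha and gamma were 5.01 and 5.08 and the HAT1-/- medians turned to 5.16 and 4.91. Single sites in HAT1+/+ ranged from 0.59 to 6.95 in alpha, from 2.91 to 7.87 in beta and from 1.63 to 8.31 in gamma. The HAT1-/- ranges were 0.77 to 6.87, 2.45 to 7.83 and 1.39 to 8.34. The lowest level found anywhere in the data was shared by 1022 sites in HAT1+/+ and 1139 in HAT1-/-, and 0 members were among them.

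**Figure D1:**
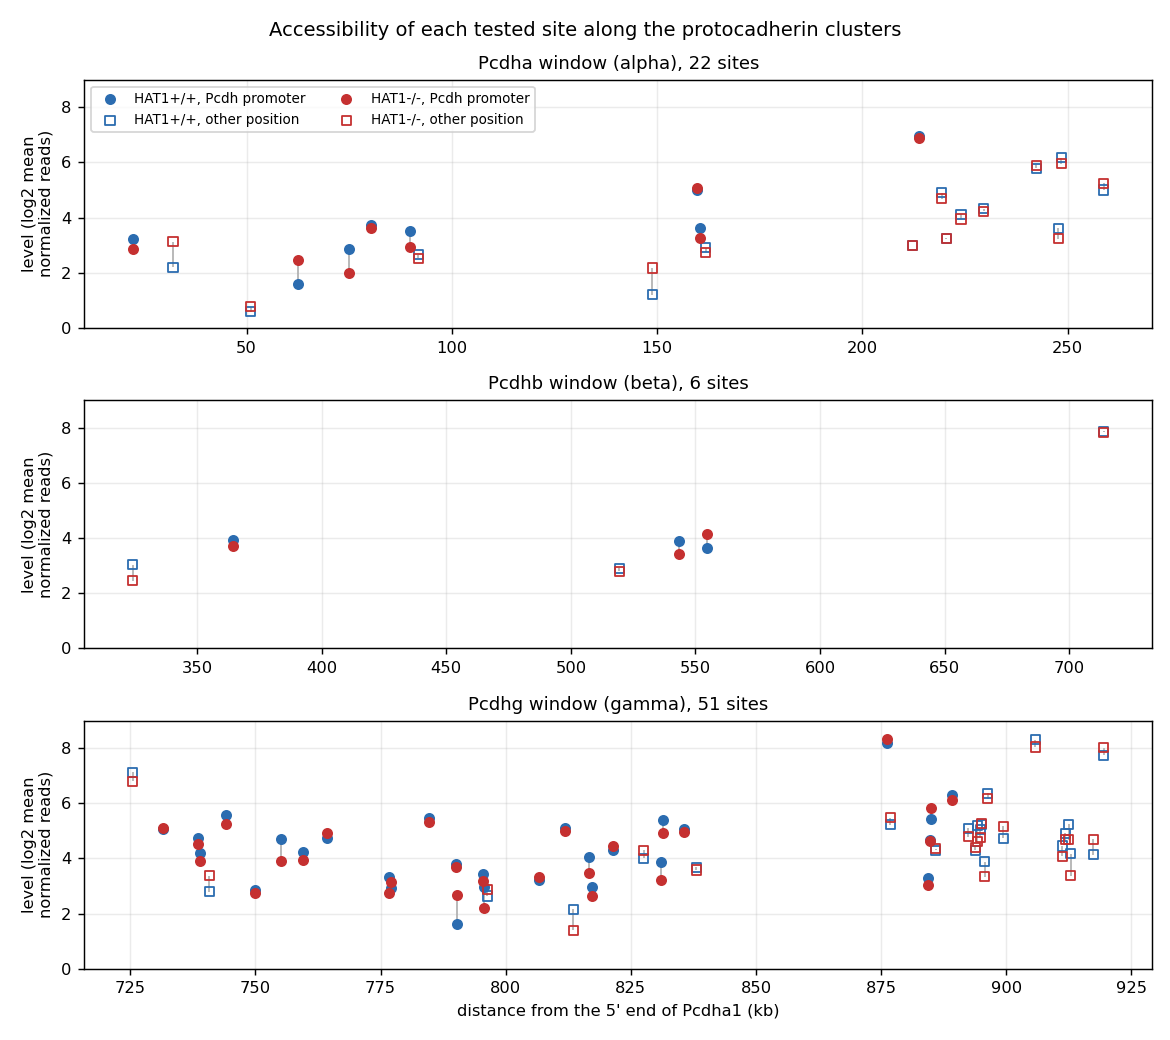
Level of each of the 79 sites (vertical axis, log2 mean normalized reads, the mean of 3 lines) against its distance from the 5′ end of Pcdha1 in kb, for HAT1+/+ (blue) and HAT1-/- (red). Filled circles are sites at protocadherin promoters, open squares other sites, and grey lines join the genotypes. The 22 alpha, 6 beta and 51 gamma sites are drawn on the same level axis but on different distance axes, and the highest sites of alpha and gamma lie in the later part of each array.

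Promoter sites were the most common kind of member. Of the 79, 41 (51.9%) overlapped a promoter of any RefSeq gene, here the 1000 bases before to 500 bases after an annotated 5′ end, against 17.4% in the flanks and 12% of all sites. The windows were placed on 58 protocadherin genes in 0.88 Mb, against 21774 protein-coding genes in 2725.52 Mb. Promoters were thus dense in them by the choice of windows. Protocadherin promoters accounted for 39 (8 in alpha, 3 in beta, 28 in gamma), promoters of other genes for 2, protocadherin exons outside promoters for 14, introns for 17 and sequence outside these genes for 7. The exon and promoter sites were alike in CpG content. Their median observed-to-expected CpG ratios were 0.632 and 0.637, whereas intron sites had 0.204, flank sites 0.227 and all sites 0.196. Median GC content was 53.1% in the members and 50.1% in all sites. The core of the CTCF motif was searched as a fixed pattern on either strand, in the 300 bases around the midpoint. Variants of the pattern and copies farther out were not counted, and binding of CTCF was not measured. The pattern was found at 3 of 79 sites (3.8%), beside 7.14% of the flank sites and 5.78% of all sites. The 3 sites were the Pcdha8 promoter site, the site in the last gamma constant exon and 1 of the sites behind it. The Pcdha8 site overlaps the variable exon, with its midpoint 431 bases after the 5′ end.

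Of the 58 genes, 30 (51.7%) had a site at their promoter, beside 70.6% of the 21774 protein-coding genes of the annotation. They were 7 of 14 in alpha, 3 of 22 in beta and 20 of 22 in gamma. Neighbouring genes were mostly covered, with 19 of 23 protein-coding genes upstream and 12 of 13 downstream having one. The covered protocadherin promoters had low levels. Their median was 4.27 in HAT1+/+ and 4.05 in HAT1-/-, against 7.23 and 7.13 over all protein-coding genes with a promoter site, and 1 of the 30, Pcdhgc3, exceeded that HAT1+/+ median. Per kb of site the medians in HAT1+/+ were 6.06 for the 30 and 7.47 for all protein-coding genes. In 23 of the 30 the site covered the annotated 5′ end. The level was lower in HAT1-/- at 21 and higher at 9, with a median difference of -0.14, against -0.07 over all protein-coding genes, and 62.5% of all promoter sites were lower.

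**Figure D2:**
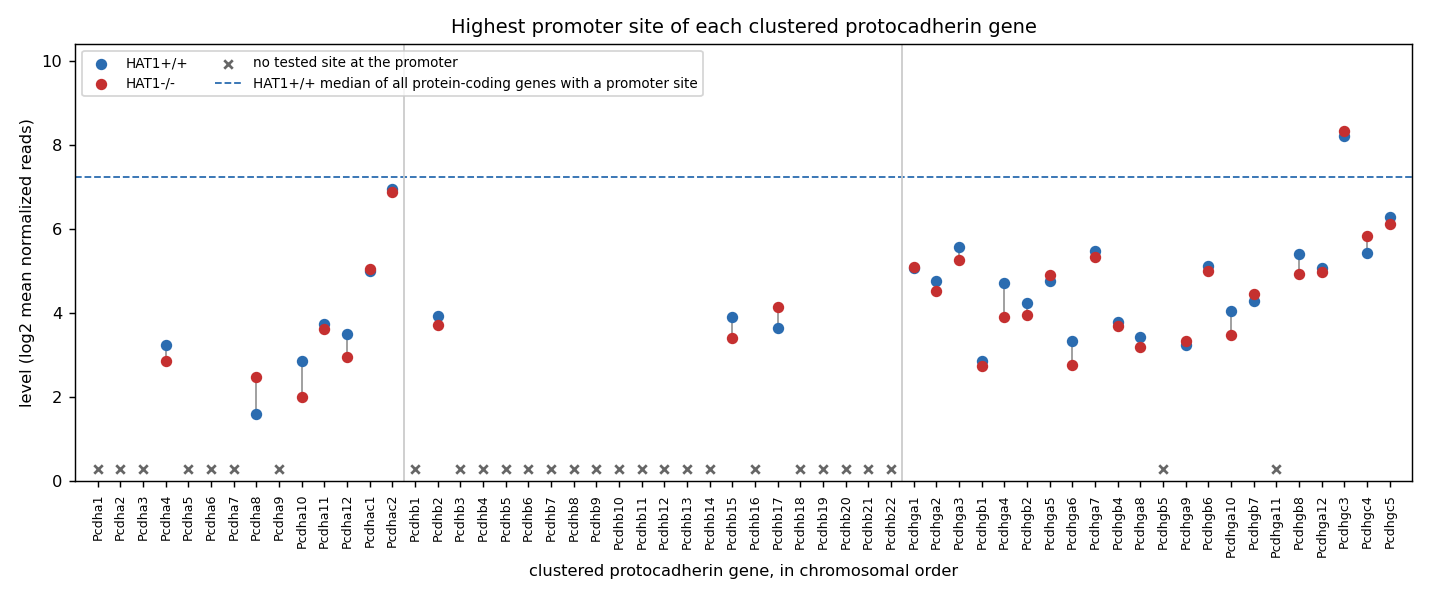
Level (log2 mean normalized reads) of the highest promoter site of each of the 58 genes in chromosomal order, in HAT1+/+ (blue) and HAT1-/- (red), with crosses near the axis for genes without a tested site at the promoter. Grey vertical lines part alpha, beta and gamma, and the dashed line is the HAT1+/+ median of 7.23 over all protein-coding genes with such a site. Pcdhgc3 alone lies above it, and crosses fill most of beta.

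In the alpha cluster the most accessible promoters were those of the pair of C-type genes. The promoters of Pcdha1, Pcdha2, Pcdha3, Pcdha5, Pcdha6, Pcdha7 and Pcdha9 had no tested site. Pcdhac2, the last gene of the array, had the widest and highest site, chr18:37143359-37144838, with a level of 6.95 (124 reads) in HAT1+/+ and 6.87 (117) in HAT1-/-. For Pcdhac1 the levels were 5.01 and 5.06. Both leading C-type sites differed little between the genotypes (-0.08 and 0.05), and a smaller second site at Pcdhac1 had 3.63 and 3.25 (-0.38).

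The 5 covered alternate alpha promoters were weak sites, and their differences were larger and of both signs. Pcdha10 had 2.85 in HAT1+/+ and 2.01 in HAT1-/-, a difference of -0.84, the lowest of the cluster. Pcdha12 went from 3.51 to 2.95 (-0.56) and Pcdha4 from 3.24 to 2.86 (-0.38). Pcdha11 was nearly level at 3.73 and 3.61. Pcdha8 was on the other side, with 1.61 in HAT1+/+ and 2.47 in HAT1-/- (0.86), values that stand for 3.05 and 5.54 mean reads. Per kb of width the median HAT1+/+ level was 5.61 for these 5 promoters and 6.22 for the C-type pair.

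Between Pcdhac2 and the end of the alpha array lay a run of 7 intronic sites, 5 of which had a HAT1+/+ level above that of every alternate alpha promoter. The site chr18:37178230-37179052 had 6.18 and 5.96, and chr18:37172188-37172883 had 5.79 and 5.90. Both fall in the intron between alpha constant exons 2 and 3, and no known enhancer was assigned to either. None of the alpha constant exons (chr18:37156155-37156213, chr18:37159265-37159353 and chr18:37184946-37187657) overlapped a site. Just behind the last of them, chr18:37188875-37189353 had 5.00 and 5.25. Its first bases overlap the end of an extended last exon annotated for Pcdha6, and the rest lies beyond the array.

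The largest positive differences in alpha were at its faintest sites. An intronic site at chr18:37079036-37079125 went from 1.20 to 2.17 (0.97), and a site in the variable exon of Pcdha5, chr18:36962321-36962478, from 2.20 to 3.12 (0.92). In reads these are 2.3 against 4.5 and 4.59 against 8.69. The weakest member of all, chr18:36981287-36981367, had 0.59 and 0.77.

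Among the 22 beta genes, Pcdhb2, Pcdhb15 and Pcdhb17 had a promoter site, all of similar level. Pcdhb2 had 3.92 in HAT1+/+ and 3.71 in HAT1-/-, Pcdhb15 had 3.91 and 3.41 (-0.50), and Pcdhb17 had 3.65 and 4.15 (0.50). The signs of these differences were thus not shared by the 3 genes. A site in the single exon of Pcdhb14, chr18:37449772-37449885, had 2.91 and 2.79, and one before the first beta gene, chr18:37254395-37254564, had 3.03 and 2.45 (-0.58). The remaining beta site belonged to Taf7, which encodes a subunit of the general transcription factor TFIID and stands between the beta and gamma genes. Its promoter had levels of 7.87 and 7.83, and with 234 of the 292 HAT1+/+ reads of the beta window it made up most of that window.

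Of the gamma promoters almost all had a site, and by the mean of both genotypes the C-type genes led. Pcdhgb5 and Pcdhga11 lacked a promoter site, although Pcdhga11 had one in its variable exon, with 4.01 and 4.30. Pcdhgc3 had the highest promoter of the 3 clusters, chr18:37805902-37806925, with 8.20 (294 reads) in HAT1+/+ and 8.34 (324) in HAT1-/-. It was followed by Pcdhgc5 with 6.29 and 6.12, Pcdhgc4 with 5.42 and 5.84, and Pcdhga3 with 5.56 and 5.26. At the low end were Pcdhgb1 with 2.85 and 2.75, Pcdhga6 with 3.34 and 2.76, Pcdhga9 with 3.23 and 3.34, and Pcdhga8 with 3.44 and 3.20. The other 12 ranged from 3.80 to 5.48 in HAT1+/+. In HAT1+/+ alone, Pcdhga3 and Pcdhga7 (5.48) were above Pcdhgc4. Neighbours in this order cannot be set apart without the spread between lines.

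By width the order at the top held in part. Per kb of site, Pcdhgc3 had 8.17 in HAT1+/+, Pcdhgc4 6.96, Pcdhga12 6.91 and Pcdhgc5 6.87, whereas Pcdhga3 had 6.15. An antisense gene, BC037039, lies over the Pcdhgc3 promoter (chr18:37805718-37807922 in GENCODE), and ATAC-Seq reads carry no strand, so the reads alone do not assign the site. By position, the annotated 5′ end of BC037039, at 37807922, falls outside the site. The midpoint of the site is 3.5 bases from the 5′ end of Pcdhgc3. Grouped by type, the median HAT1+/+ level was 4.76 for the 11 covered Pcdhga promoters, 4.27 for 6 Pcdhgb and 6.29 for 3 Pcdhgc. The corresponding median differences were -0.23, -0.12 and 0.14.

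Among gamma promoters the lowest difference of a leading site was at Pcdhga4, from 4.71 to 3.91 (-0.80, or 26.2 against 15 reads). The smaller of the Pcdhga8 promoter sites went from 2.97 to 2.20 (-0.77). On the other side stood the smaller Pcdhgb4 site, chr18:37720545-37720641, from 1.63 to 2.69 (1.06), at 3.1 and 6.45 reads, next to a stronger Pcdhgb4 site with 3.80 and 3.69 (-0.11). Pcdhgc4 also had several promoter sites, at 3.28, 4.68 and 5.42 in HAT1+/+ and 3.03, 4.63 and 5.84 in HAT1-/-, the strongest being the one higher in HAT1-/-. Sites of 1 promoter therefore did not always share a sign. In the variable exon of Pcdhga2, chr18:37670965-37671206 went from 2.80 to 3.37 (0.57).

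The strongest gamma site outside promoters lay among the constant exons. In the intron between constant exons 2 and 3, chr18:37835232-37836977, 1746 bases wide, had 8.31 (317 reads) in HAT1+/+ and 8.04 (263) in HAT1-/-, and it was the highest member in HAT1+/+. The first constant exon, chr18:37825021-37825079, lay in a site with 5.05 and 4.77, and the last, chr18:37839903-37841870, held one with 4.45 and 4.08. The second, chr18:37833265-37833353, had none.

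Behind the gamma genes the differences had both signs within 10 kb. A run of 3 sites 0.2 to 1.3 kb after the last constant exon was lower in HAT1-/-, with differences of -0.24, -0.56 and -0.81, the last being chr18:37843052-37843239 with 4.18 and 3.37. The next 2 sites lie in the body of Diaph1, a formin gene on the opposite strand, and were higher, with 4.14 and 4.70 (0.56) at 5.9 kb and 7.74 and 8.02 (0.28) at 7.9 kb. The latter, chr18:37849344-37850220, was exceeded in gamma by 2 sites in HAT1+/+, the intronic site and Pcdhgc3. At the other end of the gamma window, chr18:37655507-37656064 at the start of the noncoding gene 3222401L13Rik had 7.13 and 6.80. That gene comes from GENCODE, and the site is not among the promoter sites counted from RefSeq.

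Between the genotypes the clusters differed little, and about as much as their surroundings. The median difference was -0.105 in alpha (quartiles -0.23 and 0.10), -0.165 in beta (-0.43 and -0.06) and -0.17 in gamma (-0.33 and 0.13). It was -0.14 over the 79 sites, -0.05 upstream, -0.10 downstream and -0.06 over all sites. The level was lower in HAT1-/- at 14 of 22 alpha, 5 of 6 beta and 33 of 51 gamma sites, 52 of 79 together (65.8%), beside 58.7% in the flanks and 55% of all sites. Summed over sites, HAT1-/- kept 95.7% of the HAT1+/+ reads in alpha, 96.3% in beta and 95.2% in gamma, against 93.5% in the flanks and 94.8% over all sites. The beta value is mostly that of the Taf7 promoter. Without promoters of other genes, 92.2% was kept in beta, below the flanks, and 94.6% in gamma.

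Few sites passed a 2-fold difference. A difference of -1 or below was seen at 0 of 79 members, beside 5.11% of all sites, and of 1 or above at 1, the smaller Pcdhgb4 site, beside 2.82%. In the flanks 11 and 5 of 322 sites did so. At the 1.5-fold size of 0.58, 9 members were lower (1 in alpha, 1 in beta, 7 in gamma), beside 15% of all sites, and 4 higher (3 in alpha, 1 in gamma), beside 10.1%. The other 66 lay within 0.58 of no difference.

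The size of the differences followed the level, in the members as in the whole data set. All sites with a mean level under 3 had their 5th and 95th percentiles at -1.39 and 1.23, and those of 6 and over at -0.53 and 0.31. Of the members, 16 fell in the lowest class, with differences from -0.84 to 1.06, and 9 in the highest, with differences from -0.33 to 0.28. In each of the 5 classes 0 members lay outside these percentiles, so the promoters named above with the largest differences (Pcdha10, Pcdha8, Pcdhga4 and the smaller Pcdhgb4 site) were within the range of sites of their level.

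**Figure D3:**
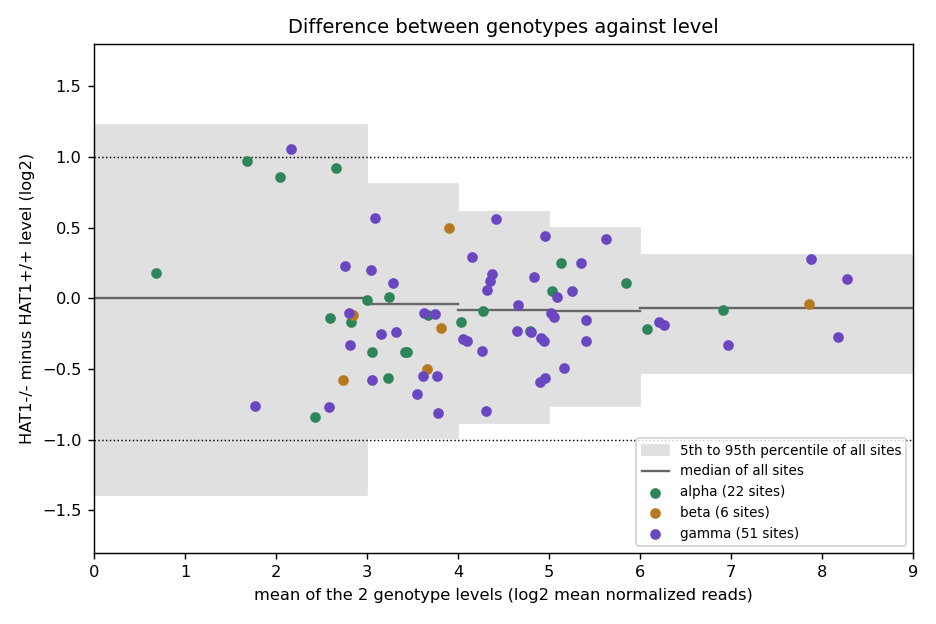
Difference between the genotypes (vertical axis, HAT1-/- minus HAT1+/+ level, log2) against the mean of both levels (horizontal axis, log2 mean normalized reads) for the 22 alpha, 6 beta and 51 gamma sites. Grey bands span the 5th to 95th percentile of all 229903 sites in 5 classes of level, with their medians as dark lines and dotted lines at -1 and 1. Every coloured point lies inside its band.

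The clusters did not meet the measure by which the study defined its domains. HAT1-dependent accessibility domains (HADs) were called where the mean log2 fold change of 25 consecutive sites was below -0.58. Centred on the members, this mean had its lowest value at -0.089 in alpha, -0.11 in beta and -0.19 in gamma, and 0 of 79 windows were below the cutoff, beside 2.26% of all windows. Of all windows, 39.1%, 33.2% and 16.4% were lower than these 3 values. These windows are not confined to a cluster. With beta so sparse, a window of 25 sites centred there reaches into both neighbouring clusters. Alpha has 22 sites, so each window centred there also takes in sites outside it. The lowest alpha and gamma windows were centred on the last site of each cluster and so reach past its end. The flanks did not pass the cutoff either, with lowest values of -0.30 upstream and -0.29 downstream. Chromosome 18 had 114 windows below it, the nearest 7.27 Mb before the alpha window and 32.9 Mb behind the gamma window.

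**Figure D4:**
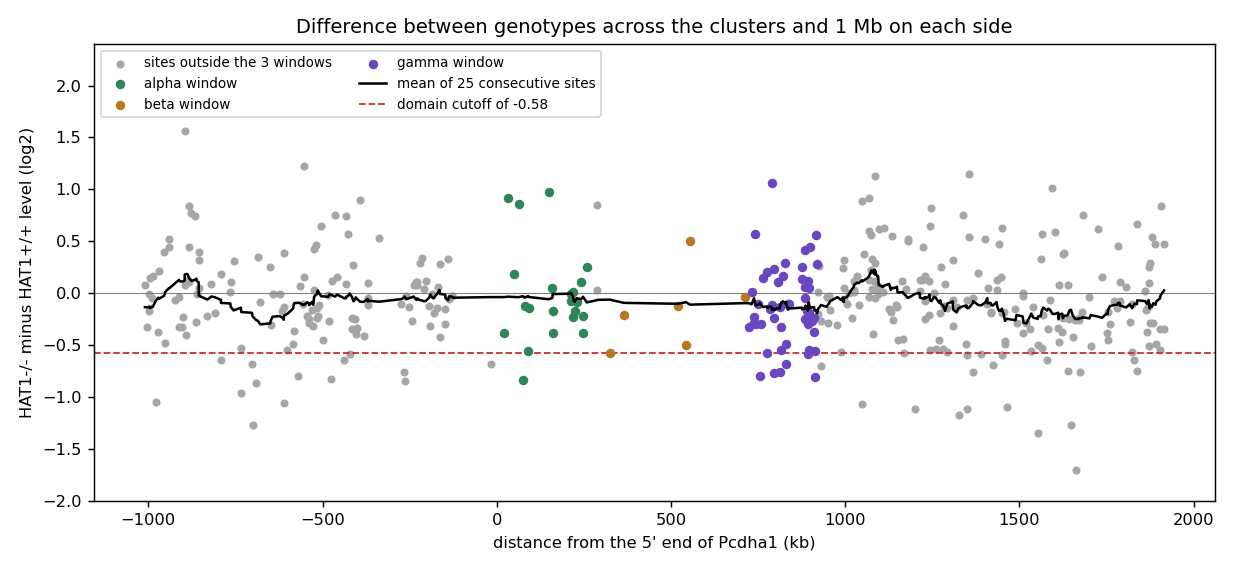
Difference between the genotypes (HAT1-/- minus HAT1+/+ level, log2) at each site of the clusters (coloured) and of the 1 Mb on each side and the gap between alpha and beta (grey), against the distance from the 5′ end of Pcdha1 in kb. The black line is the mean of 25 consecutive sites and the red dashed line the cutoff of -0.58. The line stays above the cutoff throughout, with a lowest value of -0.19 in gamma and -0.30 upstream.

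The non-clustered protocadherins, relatives outside the arrays, had higher promoter levels than the clustered genes, with medians per kb of site of 7.72 and 6.06 in HAT1+/+. Of 12, 10 had a promoter site (all but Pcdh1 and Pcdh15), with a median level of 7.03 in HAT1+/+ and 6.84 in HAT1-/- and a median difference of -0.195, 8 of the 10 being below 0. Pcdh11x was lower by over 2-fold, with 6.74 and 5.70 (-1.04). Pcdh12, which lies downstream of the clusters, was higher, with 2.45 and 3.60 (1.15), values that stand for 5.46 and 12.1 reads. Short of 2-fold, Pcdh17 had 8.37 and 7.52 (-0.85), Pcdh20 4.93 and 4.21 (-0.72) and Pcdh8 5.86 and 5.19 (-0.67). Pcdh11x and Pcdh17 lay below the 5th percentile of all sites with a level of 6 and over (-0.53). Pcdh12 lay above the 95th percentile of the class of 3 to 4 (0.81). Among all promoter sites, 62.5% had a difference below 0, and 2.19% were lower and 0.91% higher by 2-fold. The median difference over all protein-coding genes was -0.07.

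The genes examined whose products act on the clusters all had accessible promoters. CTCF and the cohesin subunits and regulators (Ctcf, Rad21, Smc1a, Smc3, Stag1, Stag2, Nipbl and Wapl) had median levels of 8.32 in HAT1+/+ and 8.33 in HAT1-/- and differences from -0.18 to 0.11. The 9 silencing and methylation factors examined (Smchd1, Setdb1, Dnmt3b, Wiz, Lrif1, Rest, Atf7ip, Ehmt1 and Ehmt2) had 7.42 and 7.21, with a median difference of -0.09 and 7 of the 9 below 0. That is close to the median of -0.07 over all protein-coding genes, with 62.5% of all promoter sites lower. The lowest difference of the 9 was at Ehmt2, which encodes an H3 K9 methyltransferase, with 6.54 and 5.87 (-0.67). Its mean level falls in the class of 6 and over, near the lower edge. The Ehmt2 difference was below the 5th percentile of all sites in that class, which was -0.53. In the class of 5 to 6 that percentile was -0.76. In both lists 0 genes differed by 2-fold in either direction.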

How the data were processed

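ATAC-Seq reads of 3 HAT1+/+ and 3 HAT1-/- primary MEF lines were aligned by the authors to mm10 with Bowtie2, peaks were called with MACS2, and sites were compared with DiffBind 2.14.0. The authors deposited, for each site, the log2 level of the mean normalized reads of each genotype. Their fold changes, p-values and FDR are the study's own comparison and were not used. With genotype means only, depth per line is unknown and no test was made.

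Genes came from the RefSeq annotation of GRCm38, the assembly of mm10, with noncoding neighbours from GENCODE vM21. A gene was described by its promoter site with the highest mean level. Named were all covered genes (in gamma the 4 highest and 4 lowest), the C-type genes, the constant exons, and in each cluster the 3 sites highest in HAT1+/+ level and at either end of the difference. The members and lists were chosen with earlier results of these data known. Composition, level classes and bins were added after the data were seen. Scripts were tested on simulated data. Python 3.11.15, pandas 2.3.3, numpy 2.4.6 and matplotlib 3.10.9 were used.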

Additional observations from a re-analysis of the deposited data

How the results depend on the processing

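No paired analysis was possible because the levels are averages for each genotype, which also leaves no single line to omit. Of 108 values computed under another setting, 77 stayed within the margin set for them, which was 1.5 times for counts, 0.5 percentage points for reads kept, 1 SD over the windows of a cluster for the moving mean, and the 95% order-statistic interval over sites for medians. With 6 sites that interval is the whole range of beta, so its medians count as within the margin however far they moved. With only sites of a mean level of at least 4, 8, 1 and 33 sites remained in alpha, beta and gamma, the HAT1+/+ medians were 5.01, 7.87 and 5.08, the HAT1-/- medians 5.16, 7.83 and 4.91, the reads kept 96.6%, 97.3% and 96.2%, and 0 gamma sites were higher by 1. The median difference of a cluster less that of the flanks, -0.025 in alpha and -0.085 in beta, then turned to 0.045 and 0.09, while it stayed below 0 in gamma. The beta values there are those of the Taf7 site alone. Per kb of site the HAT1+/+ medians were 5.68, 5.56 and 6.36 and the HAT1-/- medians 5.62, 5.55 and 6.11. At 0.58, 1, 1 and 7 sites were lower in alpha, beta and gamma and 3 higher in alpha. Reads kept were 94.1% in alpha and 93.8% in gamma over the span of the genes, 92.2% in beta and 94.6% in gamma without promoters of other genes, and 101%, 102% and 100.4% after scaling to equal sums. The lowest moving mean was -0.084 in beta and -0.244 in gamma over 15 sites, and -0.147 in gamma over 51.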

Other observations

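A pair of sites lay between the alpha and beta windows and so outside all 3 clusters. One, chr18:37217301-37217579, 29.8 kb after the last alpha constant exon, had a level of 3.21 (9.25 reads) in HAT1+/+ and 4.06 (16.7 reads) in HAT1-/-, a difference of 0.85. Its neighbour at chr18:37218181-37218511 was stronger and had 5.46 and 5.49. No value for a single line is known for either.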
